A study of Mus musculus with 8 samples.

Results

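The genes described here are 7 matrix metalloproteinases (MMPs), *Mmp2*, *Mmp9*, *Mmp14*, *Mmp15*, *Mmp16*, *Mmp17*, and *Mmp24*, and 3 tissue inhibitors of metalloproteinases (TIMPs), *Timp2*, *Timp3*, and *Timp4*. They were chosen by symbol and not by a measured value. All 10 were found among the 25239 gene symbols of the deposited table, and all 10 were among the 18123 genes that were tested, whose mean over the 8 libraries was 0.1 CPM or more (CPM is the authors' normalized read count, scaled by library size). In short, *Timp2* and *Mmp17* were by far the most abundant of the 10 per transcript length, the gelatinases *Mmp2* and *Mmp9* were the least abundant, and no member differed between groups at an adjusted p under 0.05 in any of 6 comparisons. The differences that passed an unadjusted threshold in limma were those of *Timp2* and *Timp3*. *Timp2* was higher in the BCAS libraries labelled WT, though its values overlapped between the 2 BCAS groups. *Timp3* was lower in the BCAS libraries labelled TRPA1-KO than in sham. Each comparison called at most 1 of the 10 members in this way, beside 1.5% to 5.45% of all genes tested.

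MMPs are zinc-dependent endopeptidases that cut collagens, laminins, proteoglycans, and many cell surface proteins. They are made as inactive proenzymes whose prodomain must be removed. The gelatinases are secreted, whereas the membrane-type MMPs stay on the cell surface through a transmembrane segment or a glycosylphosphatidylinositol (GPI) anchor. TIMPs bind the active site of MMPs and block it, and TIMP2 also takes part in activation, because it holds the proenzyme of MMP2 on the membrane-type enzyme MMP14, which then cleaves it. In the brain, gelatinase activity is known for opening the blood-brain barrier and degrading myelin proteins after reduced blood flow.

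The corpus callosum, a white matter tract that joins the hemispheres, was taken for RNA sequencing from adult male mice labelled C57BL/6 (C57BL/6J in the study's methods, the strain to which the TRPA1-KO line was backcrossed). The mice had undergone bilateral common carotid artery stenosis (BCAS), in which microcoils around both arteries reduce blood flow to the brain, or a sham operation without coils. Of the 8 libraries, 4 were labelled WT and 4 TRPA1-KO, the latter from mice in which the ion channel gene *Trpa1* was deleted in all cells, sham mice included. Within each label, sham was sequenced once, on day 14 after the operation, and BCAS once per time point, on days 7, 10, and 14. The days therefore serve as replicates, days and animals both add to their spread, and the p-values measure only the spread between these libraries. In the study's methods, each data point stands for a sample from 1 mouse, a statement not made for the sequencing in particular. Since sham was sampled on day 14 only, operation and day cannot be told apart on days 7 and 10.

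The libraries held 7896071 to 12952093 reads in genes, so that 1 read was worth 0.0782 to 0.126 CPM. *Trpa1* went against the labels. The sham library labelled WT held 1 *Trpa1* read and the 3 BCAS libraries labelled WT held 0, whereas the sham library labelled TRPA1-KO held 10 and its BCAS libraries 11, 3, and 7 on days 7, 10, and 14. The table counts each gene as a whole, so it does not show whether these reads fell on the deleted exons. Directions between genotypes therefore refer to the labels only. The tissue label was met by the oligodendrocyte markers (8 genes, among them *Mbp* and *Mog*), which summed to 12932 to 17362 CPM, but markers of cortical neurons (4555 to 6163 CPM) and of striatal neurons (636 to 1675 CPM) were present in every library as well. The striatal markers, which include *Drd1* and *Penk*, were below the sham mean for 7 of 7 genes in each of the 6 BCAS libraries. The sham library labelled WT was also below that mean for 7 of 7. In bulk tissue, fewer cells of a type, less RNA per cell, and a different share of tissue from around the tract cannot be told apart. How much of such surrounding tissue each library held was not tested.

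The 10 genes spanned a wide range of levels. Per kilobase of merged exons, *Timp2* had a mean level of 68.2 CPM per kb over the 8 libraries (range, 59.2 to 84.9) and *Mmp17* of 37.0 CPM per kb (32.7 to 40.7), with no overlap between their ranges or with any other member. *Mmp17* encodes MT4-MMP, a membrane-type enzyme held by a GPI anchor. *Mmp24*, which encodes the transmembrane enzyme MT5-MMP, had a mean of 11.7 CPM per kb (10.6 to 12.8) and *Timp3*, whose product binds to the extracellular matrix, of 11.3 CPM per kb (9.31 to 12.8), so these 2 genes did not differ beyond their spread. *Timp4* followed with 3.64 CPM per kb (3.13 to 5.10) and *Mmp15* (MT2-MMP) with 3.10 CPM per kb (2.71 to 3.49), and then *Mmp14* (MT1-MMP) with 1.90 CPM per kb (1.43 to 3.25) and *Mmp16* (MT3-MMP) with 1.77 CPM per kb (1.34 to 2.03). Neighbours in this order from *Timp4* to *Mmp2* overlapped. The gelatinase genes came last, with 0.985 CPM per kb for *Mmp2* (0.553 to 1.42) and 0.247 CPM per kb for *Mmp9* (0.0302 to 0.402), with no overlap between the 2.

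**Figure D1:**
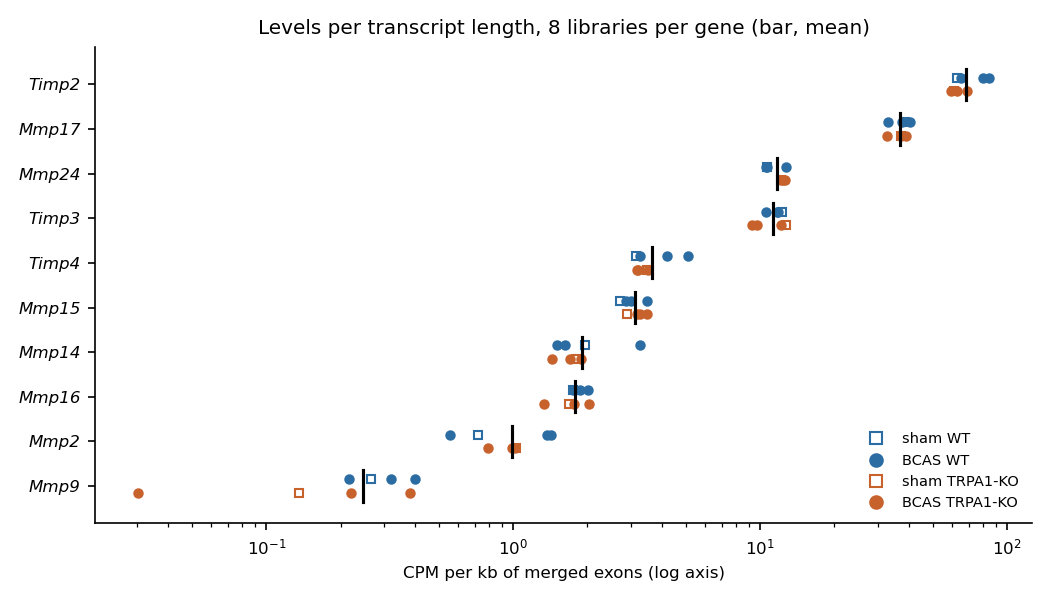
Level of each gene per kilobase of merged exons (CPM per kb, log axis) in the 8 libraries, with open squares for sham, filled circles for BCAS, blue for the label WT, orange for the label TRPA1-KO, and a bar at the mean. *Timp2* (mean, 68.2) and *Mmp17* (37.0) stand above the others, and *Mmp9* (0.247) is lowest.

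Among the 7 MMP genes, *Mmp17* alone held 61.3% to 68.5% of the summed level per kb in each library. Among the 3 TIMP genes, *Timp2* held 79.0% to 85.2%. The summed level of these 3 TIMP genes was above that of these 7 MMP genes in every library. The sums cover only the genes described here and are not totals of the 2 families. The ratio of the sums per kb was 1.38 in the sham library labelled WT and 1.37 in the sham library labelled TRPA1-KO. In the BCAS libraries labelled WT the ratio was 1.78 (day 7), 1.68 (day 10), and 1.39 (day 14). In those labelled TRPA1-KO it was 1.28, 1.25, and 1.60 on the same days. The highest ratios thus came from days 7 and 10 of the label WT and from day 14 of the label TRPA1-KO, and the ratio is dominated by *Timp2* and *Mmp17*.

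The precision differed as widely as the levels. A member is called near the read floor here when a library holds 3 reads or fewer, and 1 of the 80 values met this, the single *Mmp9* read in the BCAS day 10 library labelled TRPA1-KO. *Mmp9* had 1 to 16 reads per library and *Mmp2* 17 to 52 reads, whereas 7 of the 10 genes had over 100 reads in every library. The coefficient of variation (CV) over the 8 libraries was compared with the CV that counting alone would give at these depths. For *Mmp9* the CVs were 50.6% over libraries and 34.2% from counting, and for *Mmp2* 30.6% and 17.6%. For *Mmp15* they were 9.32% and 7.83%, the closest pair among the 10. *Timp2* varied by 13.7% where counting gave 1.97%, *Mmp17* by 7.50% against 2.05%, *Timp3* by 11.2% against 3.33%, and *Mmp14* by 30.4% against 9.44%. The spread of *Mmp15* was thus close to counting error and that of *Timp2* and *Mmp17* well above it. Counting error assumes that reads are independent molecules.

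**Figure D2:**
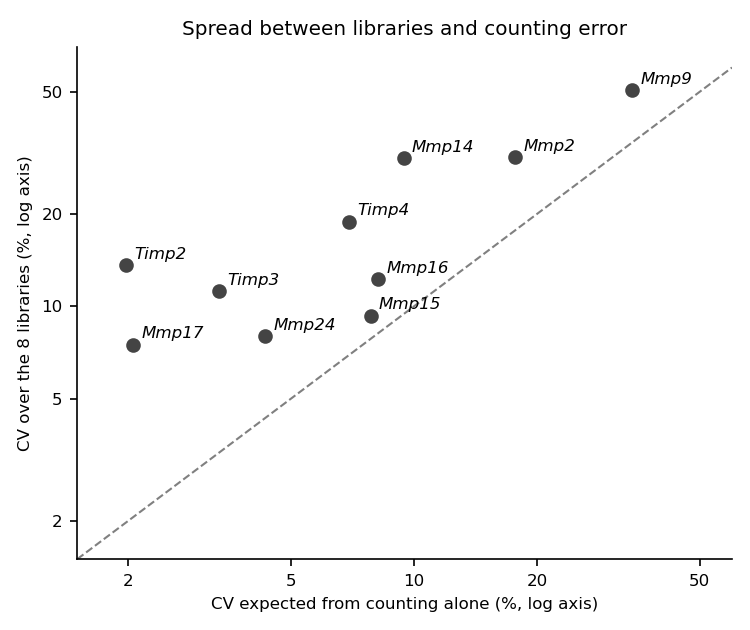
CV of each gene's CPM over the 8 libraries (vertical, %) against the CV expected from read counting alone (horizontal, %), both on log axes, with a dashed line where they are equal. *Timp2* (13.7% against 1.97%) lies far above the line and *Mmp15* (9.32% against 7.83%) close to it.

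The comparison that the study was built around sets the 3 BCAS libraries labelled WT against the 3 labelled TRPA1-KO. With the label WT, *Timp2* measured 310, 331, and 254 CPM after 7, 10, and 14 days of BCAS. With the label TRPA1-KO, it measured 245, 231, and 269 CPM. The libraries of days 7 and 10 labelled WT were the 2 highest of all 8, but the groups overlapped, since day 14 labelled WT lay below day 14 labelled TRPA1-KO. The group means were 298 ± 40.0 and 248 ± 19.5 CPM (SD, n = 3 each). On the log2(CPM + 1) scale *Timp2* was higher by 0.26 (SE 0.11, 95% interval 0.018 to 0.50) in the libraries labelled WT, which passed an unadjusted threshold of 0.05 in limma but had an adjusted p of 0.98. An exact two-sided permutation test over the libraries gave p = 0.20, where 0.10 is the smallest that 3 against 3 allows. The unadjusted call was lost without BCAS day 7 labelled WT (difference, 0.23), without day 10 labelled WT (0.18), without day 7 labelled TRPA1-KO (0.25), and without day 10 labelled TRPA1-KO (0.21).

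*Timp2* was the 1 member of 10 with an unadjusted p under 0.05 in this comparison, where 4.2% of all genes tested had one, and 0 of 10 had an adjusted p under 0.05 in limma, against 0.0166% of all genes. In edgeR 2 members, *Timp2* and *Timp4*, had an unadjusted p under 0.05 (5.23% of all genes), and in DESeq2 1 member did (3.28% of all genes). Neither tool gave an adjusted p under 0.05 for any member. The 2 groups overlapped for each of the 10 members, whereas 9.21% of all genes had groups that did not overlap. The log2 differences were positive for 8 of 10 members, with a median of 0.14, beside a median of 0.0010 over all genes tested and 50.3% of genes positive.

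*Timp4*, an inhibitor gene known from heart and brain, came next. Over days 7, 10, and 14 of BCAS it measured 30.1, 24.8, and 19.2 CPM in the libraries labelled WT, and 18.7, 20.7, and 18.9 CPM in those labelled TRPA1-KO. Days 7 and 10 labelled WT were the highest 2 of the 8 libraries, and day 14 lay within the range of the other label. The difference in log2(CPM + 1) was 0.31 (SE 0.15, 95% interval -0.034 to 0.65; limma adjusted p = 0.98), and the exact permutation test gave p = 0.20. Without BCAS day 14 labelled WT the difference was 0.47 and passed the unadjusted threshold (limma adjusted p = 0.22). In that fit 10.2% of all genes passed it, beside 4.2% with all libraries. Without BCAS day 7 labelled WT the *Timp4* difference was 0.16.

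*Mmp14* showed its pattern in 1 library. It measured 19.4 CPM (95% Poisson interval, 16.9 to 22.1) in the BCAS day 7 library labelled WT, and 8.53 to 11.7 CPM in the other 7, sham included. Days 10 and 14 labelled WT, at 9.70 and 8.997 CPM, were below both sham libraries (11.7 and 10.7 CPM). The difference between the BCAS groups was 0.25 on the log2(CPM + 1) scale (95% interval -0.32 to 0.82; limma adjusted p = 0.98), and it was -0.076 without that day 7 library.

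*Mmp2*, the gelatinase gene whose proenzyme MMP14 activates, measured 4.62 CPM (52 reads) on day 7 and 4.79 CPM (38 reads) on day 10 in the BCAS libraries labelled WT, and 1.87 CPM (17 reads) on day 14. In those labelled TRPA1-KO it measured 2.67, 3.42, and 3.33 CPM. The label WT thus held both the 2 highest values and the lowest value of the 8 libraries, and the fitted difference was 0.14 (95% interval -0.49 to 0.76; limma adjusted p = 0.99). *Mmp9* measured 1.42, 1.13, and 0.768 CPM with the label WT and 0.779, 0.107, and 1.35 CPM in the BCAS libraries labelled TRPA1-KO. The groups overlapped, and the interval of the difference, -0.29 to 0.94 in log2(CPM + 1), is wide at these few reads.

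The other 5 members did not pass the unadjusted threshold either. *Mmp24*, which is known mainly from neurons, measured 49.98, 49.7, and 59.9 CPM with the label WT and 59.0, 57.9, and 57.0 CPM in the BCAS libraries labelled TRPA1-KO. The difference was -0.13 (limma adjusted p = 0.98). Without BCAS day 14 labelled WT it was -0.21 and passed the unadjusted threshold (limma adjusted p = 0.42), as did 10.2% of all genes. Without BCAS day 10 labelled WT the *Mmp24* difference was -0.081. *Mmp17* measured 219, 269, and 249 CPM against 258, 247, and 217 CPM (difference 0.032, 95% interval -0.19 to 0.25). *Mmp16* measured 15.1, 16.1, and 17.4 CPM against 11.6, 15.3, and 17.6 CPM (0.14, -0.22 to 0.50), and *Mmp15* 18.8, 15.5, and 16.1 CPM against 18.8, 17.6, and 17.1 CPM (-0.085, -0.36 to 0.19). The intervals of *Mmp15*, *Mmp16*, and *Mmp17* thus include 0. *Timp3* differed by 0.14 (limma adjusted p = 0.98), and by 0.061 without BCAS day 10 labelled TRPA1-KO. Without BCAS day 14 of that label it differed by 0.25 and passed the unadjusted threshold (limma adjusted p = 0.95), as did 4.65% of all genes.

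**Figure D3:**
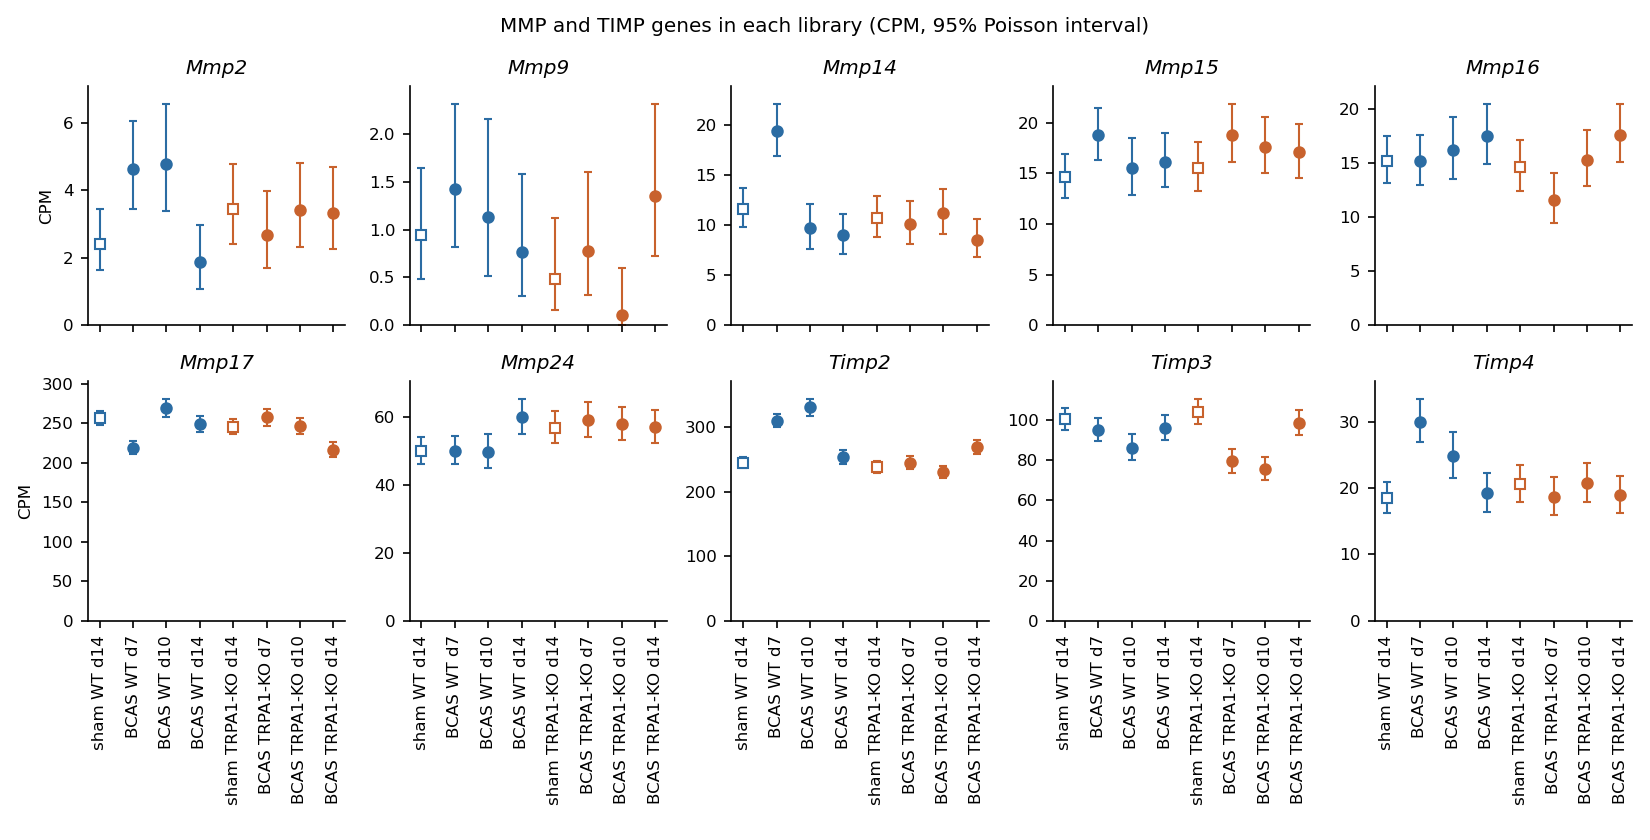
Level of each gene (CPM) in the 8 libraries, with 95% exact Poisson intervals that cover counting error only, open squares for sham, filled circles for BCAS, blue for the label WT, and orange for the label TRPA1-KO. *Timp2* and *Timp4* are highest on days 7 and 10 of BCAS labelled WT, *Mmp14* stands apart in the day 7 library labelled WT, and the *Timp3* values of the 6 BCAS libraries lie below both sham values.

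The next comparisons ask what the operation changed, with both sham libraries taken as 1 group. *Timp3*, whose product stays in the matrix and also blocks the shedding enzyme ADAM17, measured 100 and 104 CPM in the sham libraries labelled WT and TRPA1-KO. After BCAS it measured 95.2, 86.3, and 96.2 CPM in the 3 libraries labelled WT, in the order of days, and 79.5, 75.8, and 98.7 CPM in the 3 labelled TRPA1-KO. All 6 BCAS values were below both sham values, and those of days 7 and 10 labelled TRPA1-KO were lowest. Over both labels the BCAS mean was 88.6 ± 9.55 CPM (SD, n = 6) beside a sham mean of 102 CPM (2 libraries). The difference in log2(CPM + 1) was -0.21 (SE 0.10, 95% interval -0.43 to 0.0087). It did not pass the unadjusted threshold in limma (adjusted p = 1.0), and the exact permutation test gave p = 0.11 (smallest possible, 0.036). It passed the unadjusted threshold without BCAS day 7 labelled WT (-0.23), without BCAS day 14 labelled WT (-0.24), or without BCAS day 14 labelled TRPA1-KO (-0.24). In those fits 4.50%, 3.72%, and 3.93% of all genes passed it, beside 3.53% with all libraries.

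*Timp3* was the 1 member of 10 whose BCAS and sham libraries did not overlap, where 6.19% of all genes did not overlap. In limma 0 of 10 members had an unadjusted p under 0.05 (3.53% of all genes) or an adjusted one (0% of all genes), and in edgeR and DESeq2 0 of 10 had either. The members' median difference was 0.099 and 7 of 10 were positive, beside a median of -0.0013 and 49.5% positive over all genes. Beside the lower *Timp3*, the 6 BCAS libraries also had lower striatal neuron markers, summing to 636 to 1159 CPM against 1238 and 1675 CPM in sham, and lower oligodendrocyte markers, summing to 12932 to 14620 CPM against 15827 and 17362 CPM. Their part in the *Timp3* values was not tested. *Timp3* lies within *Syn3*, a neuronal gene on the opposite strand with a mean of 52.9 CPM, and the sources used here do not state whether the counting used the strand.

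Against sham, the BCAS libraries labelled WT had *Timp2* values that passed the unadjusted threshold. Its 3 values of 254 to 331 CPM were above the sham values of 245 and 239 CPM with no overlap. The difference was 0.29 (SE 0.11, 95% interval 0.046 to 0.54; limma adjusted p = 0.89), and the exact permutation test gave p = 0.20, with 0.10 the smallest possible for 3 against 2. The unadjusted call was lost without BCAS day 10 labelled WT (0.21), without the sham library labelled WT (0.31), and without the sham library labelled TRPA1-KO (0.27). *Timp2* was thus 1 of 10 members with an unadjusted p under 0.05, where 5.45% of all genes had one, and 0 of 10 had an adjusted p under 0.05 in limma, edgeR, or DESeq2 (0% of all genes in limma). Groups did not overlap for 2 of 10 members, *Timp2* and *Timp3*, where 19.9% of all genes did not overlap.

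*Timp4* differed by 0.30 in the same comparison (limma adjusted p = 0.91). *Mmp2* differed by 0.22 (limma adjusted p = 0.97). Without BCAS day 14 labelled WT both passed the unadjusted threshold, *Timp4* with 0.47 (limma adjusted p = 0.19) and *Mmp2* with 0.55 (limma adjusted p = 0.40). In that fit 11.1% of all genes passed it, beside 5.45% with all libraries. Without BCAS day 7 labelled WT *Timp4* differed by 0.16, and without the sham library labelled WT *Mmp2* differed by 0.027. The other 7 members did not pass it, and the intervals of *Mmp17* (-0.26 to 0.19) and *Mmp24* (-0.23 to 0.21) leave room for changes of either sign. The median over the 10 members was 0.13 with 7 positive, beside -0.0012 and 49.6% positive over all genes.

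In the BCAS libraries labelled TRPA1-KO against the same sham libraries, *Timp3* passed the unadjusted threshold, with a difference of -0.28 (SE 0.11, 95% interval -0.52 to -0.041; limma adjusted p = 1.0). The exact permutation test gave p = 0.20. The unadjusted call was lost without day 7 labelled TRPA1-KO (-0.24), without day 10 labelled TRPA1-KO (-0.20), without the sham library labelled WT (-0.30), and without the sham library labelled TRPA1-KO (-0.25). *Timp3* was 1 of 10 members with an unadjusted p under 0.05 (2.74% of all genes), and 0 of 10 had an adjusted p under 0.05 in limma (0.00552% of all genes), edgeR, or DESeq2. *Timp2* measured 231 to 269 CPM here and differed from sham by 0.033 (95% interval -0.21 to 0.28).

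Groups did not overlap for 3 of 10 members in this comparison, beside 18.6% of all genes. Besides *Timp3*, these were *Mmp15*, at 17.1 to 18.8 CPM against 14.6 and 15.5 CPM in sham (difference 0.23, 95% interval -0.061 to 0.52; limma adjusted p = 1.0), and *Mmp24*, at 57.0 to 59.0 CPM against 49.9 and 56.8 CPM (0.12, -0.10 to 0.34). The 10 members had a median of -0.014 with 4 positive, beside -0.0021 and 49.4% positive over all genes. This comparison and the preceding one share their sham libraries.

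**Figure D4:**
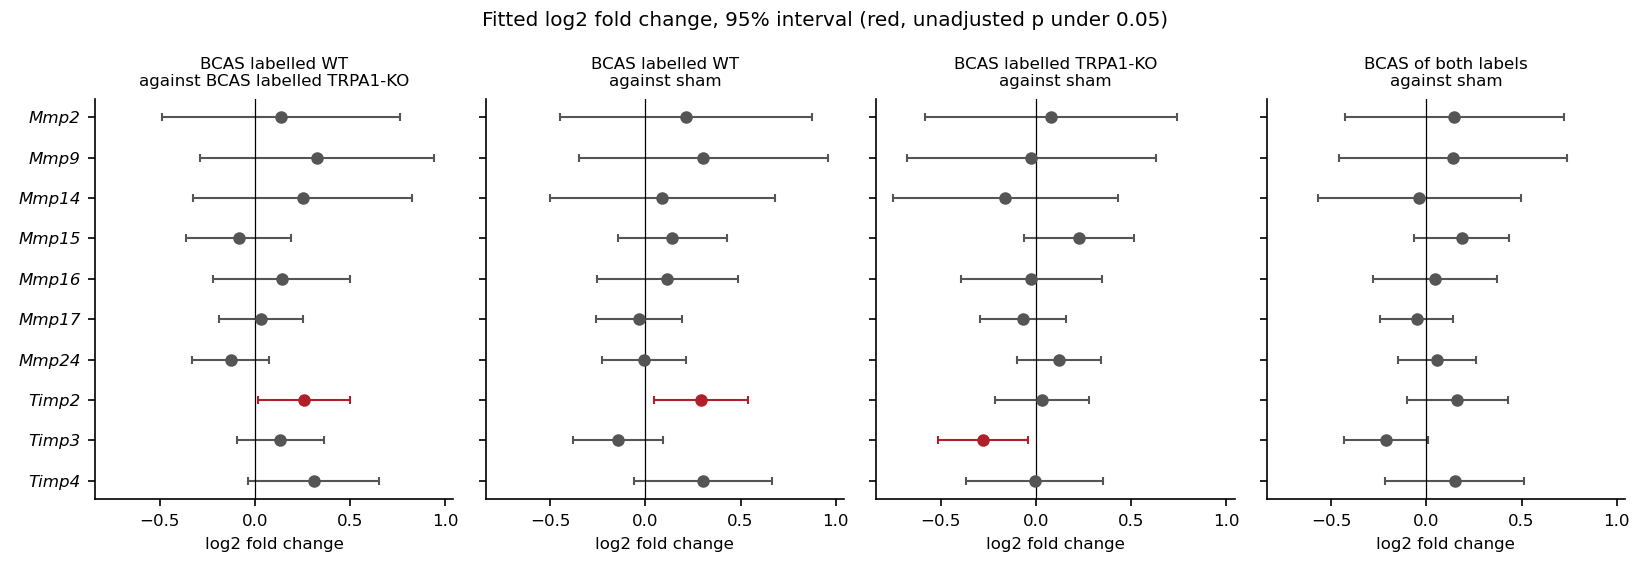
Fitted log2 fold change of each gene with its 95% interval from limma in 4 comparisons, with a line at no change and red points where the unadjusted p is under 0.05. *Timp2* is red in the comparisons of BCAS labelled WT with BCAS labelled TRPA1-KO (0.26) and with sham (0.29), and *Timp3* in that of BCAS labelled TRPA1-KO with sham (-0.28).

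With sham included, all 4 libraries labelled WT were set against all 4 labelled TRPA1-KO. In limma, 0 of 10 members had an unadjusted p under 0.05 (3.94% of all genes) or an adjusted one (0.0497% of all genes). The tools edgeR and DESeq2 each gave 1 unadjusted (4.76% and 3.44% of all genes) and 0 adjusted. The smallest p-values were those of *Timp2* (difference, 0.20) and *Mmp24* (-0.14), each with a limma adjusted p of 0.99, and the exact permutation test gave p = 0.14 for both (smallest possible, 0.029). The groups overlapped for all 10 members (2.46% of all genes did not overlap). *Mmp24* measured 56.8 to 59.0 CPM in the 4 libraries labelled TRPA1-KO and 49.7 to 49.98 CPM in 3 of the 4 labelled WT, with 59.9 CPM in the fourth, BCAS day 14. Without that library its difference was -0.21 and passed the unadjusted threshold (limma adjusted p = 0.83), as did 5.87% of all genes. *Timp2* passed it without the sham library labelled WT (0.27), without BCAS day 14 labelled WT (0.26), and without BCAS day 14 labelled TRPA1-KO (0.25). In those fits 5.81%, 5.87%, and 3.98% of all genes passed it, beside 3.94% with all libraries. The *Timp2* difference was 0.13 without BCAS day 10 labelled WT. *Mmp9*, with a difference of 0.34, passed it without BCAS day 14 labelled TRPA1-KO (0.52, limma adjusted p = 0.98) and was at 0.16 without BCAS day 10 of that label.

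Whether the BCAS change itself differed between the labels was tested with an interaction term, in which each sham label is 1 library that is assumed to vary like the BCAS groups. In limma 0 of 10 members had an unadjusted p under 0.05 (1.5% of all genes) or an adjusted one (0% of all genes), and so did 0 of 10 in edgeR and in DESeq2. The smallest p was that of *Timp4* (difference 0.46, 95% interval -0.23 to 1.15; limma adjusted p = 1.0). With a library left out it ran from 0.31 to 0.62, the highest without BCAS day 14 labelled WT.

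Over days 7, 10, and 14 of BCAS, 7, 7, and 5 of the 10 members were above the sham mean in the libraries labelled WT, and 5, 6, and 6 in those labelled TRPA1-KO, beside 48.0% to 50.5% of all genes tested. The median over the members was 0.33 on day 7 labelled WT, on the log2(CPM + 1) scale relative to sham, and -0.021 to 0.12 in the other 5 BCAS libraries. Of the 10 members, 3 had their highest value in the day 7 library labelled WT (*Mmp9*, *Mmp14*, and *Timp4*) and 3 in the day 10 library labelled WT (*Mmp2*, *Mmp17*, and *Timp2*), beside 21.9% and 11.6% of all genes tested. Each day is 1 library per label, so differences between days have no replicate check.

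Markers of other cell types moved with these libraries. The microglia markers (6 genes, among them *Cx3cr1* and *P2ry12*) summed to 745 and 476 CPM on days 7 and 10 labelled WT. In the other 6 libraries they summed to 278 to 384 CPM. On both of those days 6 of 6 were above the sham mean, as were 6 of 6 in the BCAS day 14 library labelled TRPA1-KO. The fibroblast markers (6 genes, among them *Col1a1* and *Dcn*) summed to 40.8 and 29.4 CPM on days 7 and 10 labelled WT. Elsewhere they summed to 13.8 to 23.0 CPM. On day 7 labelled WT 6 of 6 were above the sham mean, and on day 10 5 of 6. *Slc6a13* went the other way on day 10, at 0.882 CPM against 2.66 and 1.15 CPM in sham. The BCAS day 14 library labelled TRPA1-KO also had 6 of 6 fibroblast markers above the sham mean. The astrocyte markers (7 genes, among them *Aqp4* and *Gfap*) summed to 5310 and 5109 CPM on days 7 and 10 labelled WT. Elsewhere they summed to 3719 to 4969 CPM. Their median relative to sham, in log2(CPM + 1), was 0.34 and 0.19 on those days. It was 0.22 in the BCAS day 14 library labelled TRPA1-KO. *Timp2*, *Timp4*, and *Mmp2* had their 2 highest values in the same 2 libraries, and the part of these cell types in those values was not tested. Markers of neutrophils, a main source of MMP9 protein in inflamed tissue, were at or near 0, with each of the 5 genes under 1 CPM in every library and a sum of 0.104 to 1.07 CPM.

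**Figure D5:**
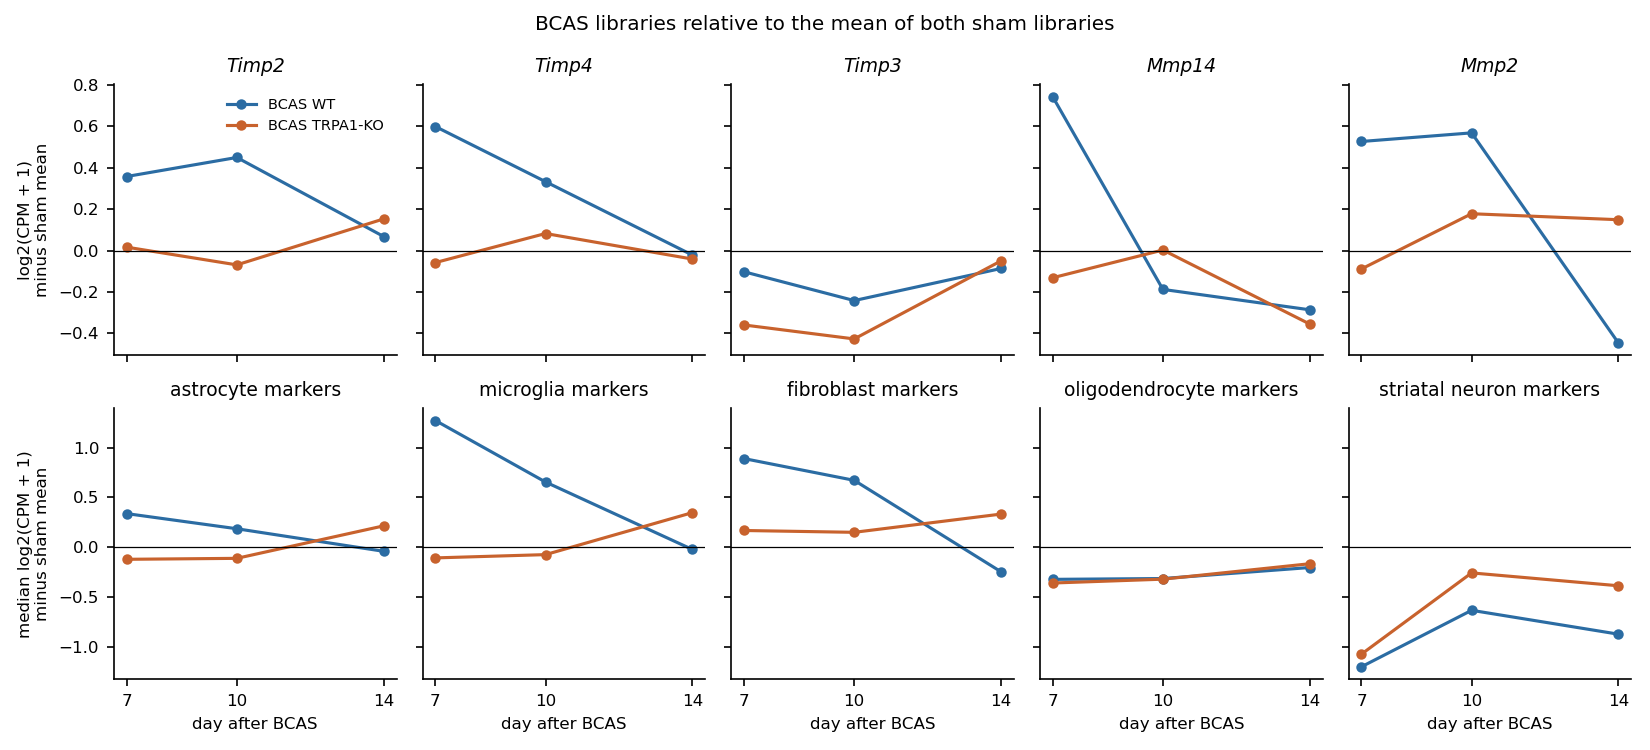
BCAS libraries on days 7, 10, and 14 relative to the mean of both sham libraries, in log2(CPM + 1), for 5 genes (top) and as the median over 5 lists of cell type markers (bottom), with blue for the label WT and orange for the label TRPA1-KO, 1 library per point. *Timp2*, *Timp4*, and *Mmp2*, like the microglia and fibroblast markers, are highest on days 7 and 10 of the label WT, and the median of the striatal neuron markers is below the sham mean throughout.

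The positions of the genes bear on how their reads can be told apart. All are protein-coding genes on GRCm38 (GENCODE M21). *Timp2* lies on chromosome 11 (118301069 to 118355740, minus strand), *Timp3* on chromosome 10 (86300372 to 86349506, plus strand), *Timp4* on chromosome 6 (115241892 to 115252205, minus strand), and *Mmp14* on chromosome 14 (54431612 to 54445364, plus strand). *Mmp2* (92827291 to 92853420) and *Mmp15* (95352268 to 95375080) both lie on the plus strand of chromosome 8, and *Mmp9* (164940780 to 164955850) and *Mmp24* (155775342 to 155818366) on that of chromosome 2. *Mmp16* lies on chromosome 4 (17852893 to 18119145) and *Mmp17* on chromosome 5 (129584169 to 129611099), both on the plus strand. *Timp4*, like *Timp3*, sits inside a synapsin gene on the opposite strand, *Syn2*, at a mean of 369 CPM, and part of *Mmp24* overlaps *BC029722* on the opposite strand (50.8 CPM). *Timp2* contains *Cep295nl* on its own strand (0.161 CPM) and *Mmp16* a processed pseudogene. The reads of overlapping genes may not be fully separated, and *Mmp2*, *Mmp9*, *Mmp14*, *Mmp15*, and *Mmp17* overlap no annotated gene.

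RefSeq promoter sequences (GRCm38.p6) were matched for 6 of the 10 genes, *Mmp14*, *Mmp15*, *Mmp24*, *Timp2*, *Timp3*, and *Timp4*. The 250 bases before the RefSeq start were searched on both strands for the GC box GGGCGG bound by SP1 family factors, which 32.7% of all 32851 promoters hold. It was found 2 times in *Mmp14*, 3 times in *Mmp24*, and once each in *Mmp15*, *Timp2*, and *Timp3*, and was not found in *Timp4*. The hypoxia response core ACGTG was found once, in *Mmp14*, 48 bases before the start (16.6% of all promoters hold it). The AP-1 motif TGANTCA (6.75% of promoters), the STAT motif TTCNNNGAA (7.02%), and the TATA motif TATAAA (12.4%) were found in none of the 6. The GC content of the 6 windows was 53.6% (*Timp4*) to 79.2% (*Mmp24*), beside a median of 52.4% over all promoters. The RefSeq and GENCODE starts differ, and 203 of the 250 bases lie in GENCODE exons of the gene for *Timp2*, 40 for *Timp3*, and 28 for *Mmp15*. A match describes letters in this window and is no evidence of binding.

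The windows of *Mmp14* (chr14:54431348-54431597, plus strand) and *Timp4* (chr6:115252206-115252455, minus strand) are shown because *Mmp14* and *Timp4* were both highest in the BCAS day 7 library labelled WT and differ in this motif, and because neither window holds exon bases of its gene. Both run 5′ to 3′ on the strand of the gene, with GC boxes of either strand in capitals.
Mmp14: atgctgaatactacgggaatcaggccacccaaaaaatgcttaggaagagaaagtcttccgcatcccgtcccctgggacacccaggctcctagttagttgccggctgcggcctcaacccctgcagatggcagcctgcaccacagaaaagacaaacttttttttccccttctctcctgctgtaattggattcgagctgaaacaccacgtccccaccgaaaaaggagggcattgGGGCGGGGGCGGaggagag
Timp4: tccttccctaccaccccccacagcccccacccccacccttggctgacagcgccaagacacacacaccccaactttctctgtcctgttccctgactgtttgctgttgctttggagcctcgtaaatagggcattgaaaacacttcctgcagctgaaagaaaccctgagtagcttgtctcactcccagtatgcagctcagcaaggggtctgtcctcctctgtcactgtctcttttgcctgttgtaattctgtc
The *Mmp14* window thus holds 2 GC boxes close to the start, and the *Timp4* window holds none.

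The other genes of the proteolytic system were counted by list. Of 14 further MMP genes, 8 passed the low-value filter, 4 were at 0 reads in all libraries, 5 had 3 reads or fewer in every library, and 0 had a mean of 10 CPM or more. Of the 8, 0 had an unadjusted limma p under 0.05 between the BCAS groups or against sham, and edgeR gave 1 between the BCAS groups and DESeq2 0. The smallest p-values between the BCAS groups were those of *Mmp12*, macrophage elastase, and *Mmp3*, stromelysin 1 (limma adjusted p = 0.98 for each). *Mmp12* was at 6.58 CPM in the BCAS day 7 library labelled WT and at 0 to 0.223 CPM in the other 7, and *Mmp3* was at 0.889 CPM in that library and at 0 elsewhere. Against sham the smallest were those of *Mmp23*, at 0.988 to 2.46 CPM in the BCAS libraries and 1.64 and 2.40 CPM in sham, and again *Mmp12* (limma adjusted p = 1.0 for each). Over all genes tested, 4.2% had an unadjusted limma p under 0.05 between the BCAS groups (5.23% in edgeR and 3.28% in DESeq2) and 3.53% against sham.

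Of 13 ADAM and ADAMTS genes, which encode related shedding and matrix-cutting enzymes, 2 were higher and 1 lower in BCAS labelled WT than in BCAS labelled TRPA1-KO at an unadjusted limma p under 0.05, and 0 after adjustment. *Adamts9* was higher by 0.68, *Adam17*, the gene of the tumour necrosis factor converting enzyme that TIMP3 inhibits, by 0.36, and the aggrecanase gene *Adamts4* differed by -0.23 (limma adjusted p = 0.98 for each). Of all genes, 4.2% had an unadjusted limma p under 0.05 in this comparison. In edgeR 3 and in DESeq2 4 of the 13 had an unadjusted p under 0.05, beside 5.23% and 3.28% of all genes. *Adam17* measured 37.4 and 29.6 CPM on days 7 and 10 labelled WT and 21.0 to 26.5 CPM in the other 6 libraries. Against sham, *Adamts4* was the 1 gene of the 13 with an unadjusted p under 0.05 (-0.32, limma adjusted p = 1.0), at 77.8 to 101 CPM in the 6 BCAS libraries and 107 and 108 CPM in sham, with no overlap.

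The next counts use an unadjusted limma p under 0.05, which 4.2% of all genes had between the BCAS groups and 3.53% against sham. Of 20 genes for activators of MMPs and for further inhibitors, 0 were higher and 1 was lower between the BCAS groups. The lower gene was *Spock3*, a testican (-0.39, limma adjusted p = 0.98). Against sham 1 was higher and 0 lower, the proprotein convertase gene *Pcsk5* (0.42, limma adjusted p = 1.0). Between the BCAS groups edgeR and DESeq2 each gave 4 of these 20 genes an unadjusted p under 0.05, beside 5.23% and 3.28% of all genes. At the same limma threshold, 1 of 17 genes for substrates was higher and 0 lower between the BCAS groups. Against sham 0 were higher and 1 lower. In both cases the gene was *Vcan*, which encodes the proteoglycan versican. *Vcan* measured 38.1 to 39.7 CPM in BCAS labelled WT, 27.1 to 37.2 CPM in BCAS labelled TRPA1-KO, and 41.7 and 45.2 CPM in sham. Its difference was 0.29 between the BCAS groups (limma adjusted p = 0.98) and -0.31 against sham (limma adjusted p = 1.0).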

How the data were processed

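Libraries of polyadenylated RNA from the corpus callosum were grouped by their deposited genotype label, operation, and day. Per the study's methods, the authors mapped reads to GRCm38 with HISAT2 and calculated gene expression with Subread and edgeR. The gene annotation, the strand setting, and any gene filter are not given in the sources used here. The deposited signal is not log-transformed. Per the study's methods and the values, the authors took reads per gene, corrected them for library size with a normalization factor, and set them on a CPM scale, and the sums were 966202 to 1022161 per library. In every library 100% of values were whole multiples (tolerance 0.01) of its lowest nonzero value. The reads obtained in this way carry the floor of 3 reads and the 95% exact Poisson intervals.

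The main test was limma (version 3.58.1, R version 4.3.3; lmFit, eBayes with trend, two-sided) on log2(CPM + 1), with Benjamini-Hochberg adjustment over 18123 genes. A log2 fold change on this scale understates the change of low genes. The BCAS groups were compared over 6 libraries, and the other comparisons over all 8 in 1 fit. The exact permutation tests over libraries were two-sided. All 10 members are named, and of the other lists those with an unadjusted p under 0.05 in the comparison of the BCAS groups or of BCAS with sham, up to 5 per list, or else the 2 with the smallest p. Not every gene of the lists is reported here by name. The members and lists were chosen with earlier results of these data known.

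The settings varied were the pseudocount (0.1), the low-value filter (none, or a minimum mean of 1 CPM), robust variance, equal library medians, the day as a replicate block, each library left out, and edgeR version 4.0.16 (quasi-likelihood) and DESeq2 version 1.42.0 on the recovered reads. The fits were also run on simulated counts, in which the changes set were larger than any member's difference here. That run does not show whether changes as small as those of the members would be found. Exon lengths and positions come from GENCODE M21, and promoters from RefSeq.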

Additional observations from a re-analysis of the deposited data

Results flagged for a closer look

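Among 30 groups of 4 to 6 libraries examined for a value far from the rest (3 per gene: the 6 BCAS libraries, the 4 labelled WT, and the 4 labelled TRPA1-KO), 3 held one, where chance gives about 1 in 20 groups. *Mmp14* stood at 19.4 CPM in the BCAS day 7 library labelled WT, far above the other 5 BCAS libraries (8.53 to 11.2 CPM). The microglia and fibroblast markers were highest in that library, at sums of 745 and 40.8 CPM, and their part was not tested. *Mmp24* stood at 59.9 CPM in the BCAS day 14 library labelled WT, above the other 3 libraries with that label (49.7 to 49.98 CPM) and close to the 4 labelled TRPA1-KO (56.8 to 59.0 CPM). *Mmp2* stood at 2.67 CPM (24 reads) in the BCAS day 7 library labelled TRPA1-KO, below the other 3 with that label (3.33 to 3.45 CPM), and its Poisson interval of 1.71 to 3.98 CPM contains their values.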

How the results depend on the processing

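Each count and each member's difference was recomputed under 7 or 8 other settings and with each library that enters it left out, except that for the interaction only the count and *Timp4* are reported, with 6 libraries left out, since each sham label is 1 library. Between the BCAS groups the count of members with an unadjusted p under 0.05 (1) was 0 with no filter, 0 with the replicate block, 2 in edgeR, and 0 to 3 with a library left out. The same counts with a library left out were 0 to 3 for BCAS labelled WT against sham, 0 to 1 for BCAS labelled TRPA1-KO against sham, 0 to 1 for BCAS of both labels against sham, 0 to 2 between all libraries of each label, where edgeR and DESeq2 gave 1 each, and 0 to 1 for the interaction. The counts of 3 came without BCAS day 14 labelled WT. In those fits 10.2% of all genes had an unadjusted p under 0.05 between the BCAS groups, beside 4.2% with all libraries. For BCAS labelled WT against sham the shares were 11.1% and 5.45%. In edgeR the share between the BCAS groups was 5.23%. Between all libraries of each label it was 4.76% in edgeR and 3.44% in DESeq2. No setting or left-out library gave a member an adjusted p under 0.05.

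Between the BCAS groups, *Timp2* (0.26) lost its unadjusted call with no filter (limma adjusted p = 0.87) and with the day as replicate block (limma adjusted p = 1.0). The block changed no other member's call. Same-day libraries did not pair, with correlations of their deviations of -0.10, 0.0051, and -0.26 over 10744 genes on days 7, 10, and 14.

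Differences near 0 changed sign. *Mmp24* in BCAS labelled WT against sham was 0.0092 with equal medians, 0.0016 in edgeR, and 0.0018 in DESeq2. In BCAS labelled TRPA1-KO against sham, *Mmp9* was 0.059 in edgeR and 0.070 in DESeq2, and *Timp4* 0.0020 with equal medians and 0.00054 in DESeq2. *Mmp14* in BCAS of both labels against sham was 0.029 in edgeR and 0.026 in DESeq2, and *Mmp2* between all libraries of each label -0.013 with the pseudocount of 0.1.

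With a library left out, differences between the BCAS groups ran from -0.039 to 0.47 (*Mmp2*), -0.076 to 0.44 (*Mmp14*), -0.015 to 0.27 (*Mmp16*), and -0.041 to 0.11 (*Mmp17*). Against sham with the label WT they ran from -0.24 to 0.28 (*Mmp14*), -0.10 to 0.045 (*Mmp17*), and -0.098 to 0.084 (*Mmp24*). With the label TRPA1-KO they ran from -0.11 to 0.27 (*Mmp2*), -0.27 to 0.27 (*Mmp9*), -0.15 to 0.13 (*Mmp16*), -0.12 to 0.0055 (*Mmp17*), -0.026 to 0.084 (*Timp2*), and -0.081 to 0.070 (*Timp4*). With both labels they ran from -0.042 to 0.34 (*Mmp2*), -0.054 to 0.34 (*Mmp9*), -0.19 to 0.028 (*Mmp14*), and -0.034 to 0.15 (*Mmp24*). Between all libraries of each label they ran from -0.14 to 0.20 (*Mmp2*), -0.0053 to 0.34 (*Mmp14*), and -0.011 to 0.099 (*Mmp17*). The cause was not tested. *Mmp9* rests on 1 to 16 reads per library, and each day on 1 library per label.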

Other observations

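The 5 genes below belong to the list of activators and inhibitors (4) or to that of ADAM and ADAMTS genes (1). They were picked after their values were seen, for a high value in the BCAS day 7 library labelled WT, and have no replicate. Of the 20 activators and inhibitors, 11 had their highest value in that library, and of the 13 ADAM and ADAMTS genes 7, beside 21.9% of all genes tested. *A2m*, which encodes the broad proteinase inhibitor alpha-2-macroglobulin, held 508 reads (45.2 CPM) in the BCAS day 7 library labelled WT, 79 reads (9.96 CPM) on day 10 with that label, and 0.658 to 3.75 CPM in the other 6 libraries. *Thbs1*, thrombospondin 1, held 313 reads (27.8 CPM) on day 7 labelled WT and was at 1.02 to 1.76 CPM elsewhere. *Cd44*, a surface receptor that holds MMP9 and MMP14, was at 22.3 CPM there and at 1.43 to 5.72 CPM elsewhere, and *Adam8* at 18.0 CPM and 3.23 to 6.46 CPM elsewhere. *Plau*, urokinase, was at 9.07 CPM and at 2.67 to 5.62 CPM elsewhere. Between the BCAS groups, limma gave each of these 5 genes an adjusted p of 0.98. In that library the *Mmp9* value was 1.42 CPM from 16 reads, within the interval of 0.72 to 2.31 CPM around the 1.35 CPM of the BCAS day 14 library labelled TRPA1-KO.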
